A study of Mus musculus with 2 samples.

Results

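The ADAMTS metalloproteinases (a disintegrin and metalloproteinase with thrombospondin motifs) were described here by 10 genes, Adamts1, Adamts2, Adamts4, Adamts5, Adamts7, Adamts8, Adamts9, Adamts10, Adamts12 and Adamts15, of the 55573 genes listed in the read-count and FPKM tables of mouse mesenteric arteries. The members were found by gene symbol, and the list itself was chosen from measured values of these same libraries, without a stated threshold. For that reason every value below is a description of the 2 libraries, without a test. Of the genes of the family that were left out of the list, Adamts14 had more reads than the members Adamts7 and Adamts12, and it is described beside them.

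The study asked which genes are induced by membrane depolarization of vascular myocytes. Mesenteric arteries of wild type C57BL/6 mice, 10 weeks old, were kept in 5 mM K+ solution (control, 1 library) or in 60 mM K+ solution (depolarizing, 1 library) for 60 min. Tetrodotoxin, a blocker of neuronal sodium channels, was present throughout, and surrounding connective tissue was removed. Each library was made from the pooled arteries of 2 mice, so no spread between animals could be measured. In the detailed methods the control vessels were the distal side of ligated arteries, harvested before the rest of the tissue received 60 mM K+, so that the segment of the artery, the time of harvest and the K+ concentration cannot be told apart.

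ADAMTS enzymes are secreted zinc proteases that cut or assemble the extracellular matrix. They are made as inactive precursors, most are activated by furin-type convertases, and tissue inhibitors of metalloproteinases, above all TIMP3, hold them in check. In the arterial wall they are known for cleaving versican and related hyaluronan-binding proteoglycans, for trimming collagen precursors and for acting on microfibrils.

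The libraries held 10480918 reads (5 mM K+) and 11289598 reads (60 mM K+). Changes are given as log2(fold-change), 60 mM K+ over 5 mM K+, on reads scaled with TMM (edgeR's trimmed mean of M-values), each with a 95% Clopper-Pearson interval that covers counting error only, since reads without molecular identifiers are not independent molecules and 1 library stood for each condition. Scaling by total reads instead lowered every log2(fold-change) by 0.21. A gene was called up- or down-regulated when its log2(fold-change) was above 1 or below -1 and the libraries together held at least 10 of its reads. Marker sums are in FPKM, relative to library totals and without TMM scaling. All 8 smooth muscle markers had reads, and their summed FPKM was 19642 in 5 mM K+ and 19237 in 60 mM K+. The log2 ratio of this sum was -0.03 by FPKM and 0.13 by TMM-scaled reads. For macrophages it was -0.03 and 0.02, so no direction is given for either list. The endothelial sum (0.26 and 0.45) and the fibroblast sum (-0.35 and -0.21) kept their sign. The endothelial sum over 8 markers was 1400 and 1676, with Kdr called down, the fibroblast sum over 7 was 1147 and 899, the macrophage sum over 8 was 30.3 and 29.6, and the Schwann cell sum over 6, with Pmp2 at 0, was 94.7 and 74.0. The pancreatic acinar sum over 8 markers was 11.8 and 44.3, with 7 of 8 called up and Cpb1, which was not called, as its highest in 5 mM K+ and Ctrb1 in 60 mM K+, and the adipocyte sum over 6 was 35.6 and 15.4, with Cidec as its highest. Of the adipocyte markers Adipoq and Plin1 were called down, and Lep, with 1 and 9 reads, was called up. Cidec, Retn and Adig were not called. The part of these lists in the results was not tested. Defining markers of neutrophils (S100a9, Ly6g, Retnlg, Camp and Ngp, 5 of 7), T lymphocytes (Cd3g and Cd2, 2 of 7 lymphocyte markers) and mesothelium (Msln, Upk3b, Upk1b and Lrrn4, 4 of 7) had 0 reads in both libraries. Of the other mesothelial markers Gpm6a had 30 and 10 reads and was called down, Wt1 had 4 and 4, and Krt19 had 0 and 2. In these whole arteries, fewer cells of a type and less RNA per cell cannot be told apart.

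The promoters of 3 members are shown because these genes span the directions seen below: Adamts9, which was called up, Adamts12, which was called down, and Adamts1, the most abundant member. They are the 250 bases before the annotated start in the RefSeq table of build GRCm38.p6, which held 4 of the 10 members (Adamts1, Adamts2, Adamts9 and Adamts12), and are written 5′ to 3′ on the strand of the gene. Capitals mark matches to the motifs searched, on either strand. The windows lie at chr6:92943535-92943784 (minus strand) for Adamts9, chr15:11064523-11064772 (plus strand) for Adamts12 and chr16:85803114-85803363 (minus strand) for Adamts1.
Adamts9: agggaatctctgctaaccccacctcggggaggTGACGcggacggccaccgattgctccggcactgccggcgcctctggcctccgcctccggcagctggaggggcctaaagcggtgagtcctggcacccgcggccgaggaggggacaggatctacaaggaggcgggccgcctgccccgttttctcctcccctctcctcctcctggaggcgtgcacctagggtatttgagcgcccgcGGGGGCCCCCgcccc
Adamts12: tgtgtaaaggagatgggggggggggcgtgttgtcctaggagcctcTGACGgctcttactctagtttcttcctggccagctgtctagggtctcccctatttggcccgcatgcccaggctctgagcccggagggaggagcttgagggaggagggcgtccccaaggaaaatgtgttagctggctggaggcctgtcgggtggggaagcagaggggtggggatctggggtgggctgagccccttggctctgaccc
Adamts1: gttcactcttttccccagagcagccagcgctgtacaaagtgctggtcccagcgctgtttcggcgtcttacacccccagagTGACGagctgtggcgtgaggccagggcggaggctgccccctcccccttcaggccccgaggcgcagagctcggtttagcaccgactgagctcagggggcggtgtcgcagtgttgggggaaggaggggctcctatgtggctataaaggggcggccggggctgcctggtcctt

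The short cAMP response element TGACG, a sequence known to be bound by CREB, lay in 3 of the 4 member promoters, the 3 shown, and not in that of Adamts2. It was at -218 to -214 from the start in Adamts9, at -205 to -201 in Adamts12 and at -170 to -166 in Adamts1. Of these, Adamts9 was called up, Adamts12 was called down and Adamts1 was not called. The short element was in 20.8% of all 32851 promoters. The promoter of Adamts4 was not among the 4 searched, and whether the element bears on any change was not tested. Every count of promoters is over windows from 250 bases before to 50 bases after the start, for members and all genes alike. The full element TGACGTCA, which contains the short one, was in 0 of the 4 member promoters and in 1.79% of all promoters. The AP-1 motif TGANTCA was in 0 of 4 and in 7.81% of all, and the CArG box, the motif of serum response factor, in 0 of 4 and in 1.63% of all. A match to the NF-kB site lay at -15 to -6 of Adamts9, in 1 of 4 member promoters against 8.46% of all. The bases after the start of Adamts9, alone of the 4, were not found in a protein-coding transcript of GENCODE vM1. Positions in Adamts9 thus rest on its RefSeq start alone. These are matches of letters in one window, and no binding was measured.

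Of the 10 members, all had at least 10 reads. Adamts4 and Adamts9 were called up-regulated, Adamts12 was called down-regulated, 4 members lay between 0 and 1 and 3 between -1 and 0. The study's own list of changed genes, which also set a threshold on a corrected q value, holds Adamts4 and Adamts9 but not Adamts12. The study related both genes to matrix degradation. It also measured up-regulated genes by qPCR in several mice per group, with primers listed for both, and those qPCR values were not used here. Among all 14829 genes with at least 10 reads, 5.54% were called up and 5.86% down, and since the members were chosen with these values known, nothing is read from the difference. The median log2(fold-change) of the members was 0.22, beside -0.0047 over all genes. The same 3 members passed when the end of the counting interval nearest 0 had to lie past the threshold, which 1.77% of all genes did upward and 0.492% downward. At 1.5-fold Adamts8 joined the members that were higher, beside 11.9% of all genes, and Adamts12 was again the 1 member that was lower, beside 13.1%. With at least 100 reads Adamts7 left the list, and 2 members were up and 1 was down of 9, beside 3.06% and 0.81% of all genes. The plot of change over read number places the members among all genes.

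**Figure D1:**
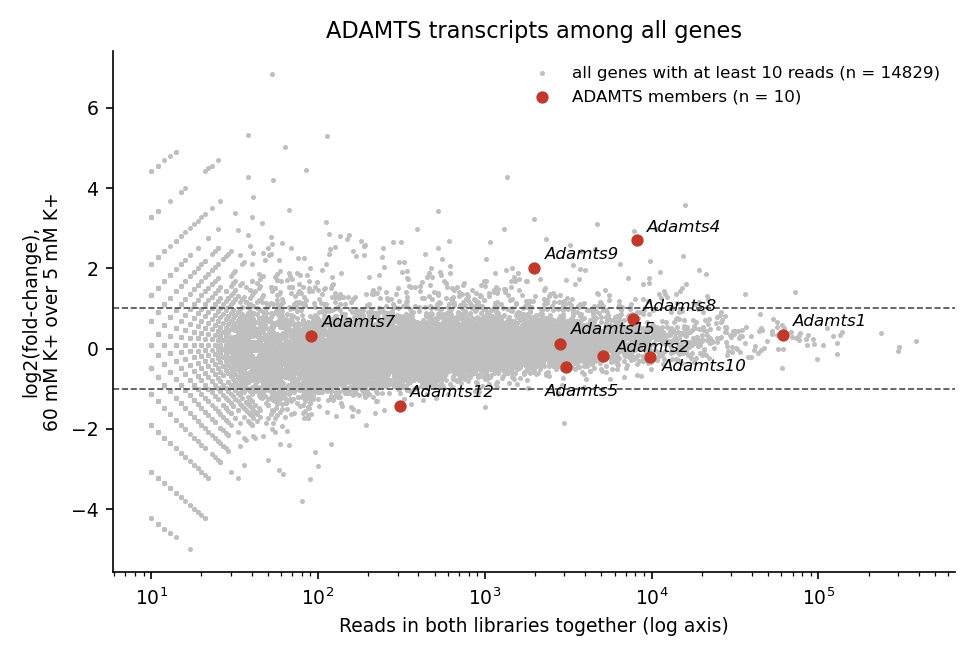
Each point is a gene, placed by its reads in both libraries together (x axis, log scale) and its log2(fold-change), 60 mM K+ over 5 mM K+ (y axis). Grey points are the 14829 genes with at least 10 reads, red points the 10 members, and dashed lines mark -1 and 1. Adamts4 at 2.71 and Adamts9 at 2.01 lie above the upper line, and Adamts12 at -1.42 lies below the lower one.

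Of the members, Adamts1, Adamts4, Adamts5, Adamts8, Adamts9 and Adamts15, belong to the group known to cleave aggrecan and versican, the hyalectan proteoglycans. Adamts4 (ENSMUSG00000006403, chr1:173180552-173190768, plus strand of mm9), an aggrecanase, had 1150 reads in 5 mM K+ and 7004 in 60 mM K+, an FPKM of 26.3 and 148. Its level was 6.53-fold higher in 60 mM K+ (counting interval 6.14 to 6.96), a log2(fold-change) of 2.71. By FPKM it stood at rank 4142 of all genes in 5 mM K+ and at rank 736 in 60 mM K+. Adamts4 had the highest fold of the 10 members.

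Adamts9 (ENSMUSG00000030022, chr6:92722693-92893486, minus strand), a versican-cleaving enzyme known from heart and vessel development, had 416 and 1567 reads, an FPKM of 9.47 and 33.1. It was 4.04-fold higher in 60 mM K+ (3.62 to 4.51), a log2(fold-change) of 2.01, and moved from rank 7714 to rank 3216 of all genes by FPKM. Genes on the opposite strand overlap it, and whether reads were counted by strand is not given in the sources used here. Of these genes, A730049H05Rik had 81 and 151 reads and Gm15737 had 22 and 11 reads, fewer than Adamts9 in either library.

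Adamts8 (ENSMUSG00000031994, chr9:30750147-30771423, plus strand) had 3029 and 4686 reads, an FPKM of 80.1 and 115. It was 1.66-fold higher (1.59 to 1.74), a log2(fold-change) of 0.73, below the threshold. Adamts15 (ENSMUSG00000033453, chr9:30706740-30730037, minus strand), its neighbour on chromosome 9 at a distance of 20109 bp with 0 protein-coding genes between them, had 1406 and 1418 reads, an FPKM of 37.5 and 35.1. Its log2(fold-change) was 0.11 with TMM and turned to -0.10 with total reads, so that no direction is given. The number of Adamts8 reads per Adamts15 read, which does not depend on the scaling, was 2.15 in 5 mM K+ and 3.30 in 60 mM K+, 1.53-fold higher (1.41 to 1.67). The pair of neighbours thus differed in change by more than the counting error.

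Adamts1 (ENSMUSG00000022893, chr16:85794072-85803358, minus strand), an inhibitor of blood vessel growth as well as a protease, was the most abundant member, with 27966 and 33217 reads and an FPKM of 1006 and 1109. It ranked 60 and 63 among all genes by FPKM. Its log2(fold-change) was 0.35 (0.33 to 0.37), and 0.14 with total reads. Adamts5 (ENSMUSG00000022894, chr16:85858415-85901370, minus strand), the other known major aggrecanase beside Adamts4, lies 55056 bp from Adamts1 with 0 protein-coding genes between them, and had 1815 and 1233 reads, an FPKM of 16.0 and 10.1. Its log2(fold-change) was -0.46 (-0.56 to -0.35). Reads of Adamts1 per read of Adamts5 were 15.4 and 26.9, so these neighbours also differed, by 1.75-fold (1.62 to 1.88).

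Of the major aggrecanase genes named above, Adamts4 was called up, and Adamts5, at -0.46, was not called. In the wider group known to cleave aggrecan and versican, Adamts9 was also called up, and Adamts1, Adamts8 and Adamts15 were not called. In 5 mM K+ there were 0.634 Adamts4 reads per Adamts5 read, and in 60 mM K+ there were 5.68, an 8.97-fold difference (8.15 to 9.86). Per length, by the deposited FPKM, the ratio was 1.64 and 14.7, and it depended on the length used. With the exonic lengths of GENCODE vM1, the level per length in 5 mM K+ was 22.8 for Adamts4 and 21.4 for Adamts5. In 60 mM K+ these levels were 129 and 13.5. Against Adamts1, Adamts4 reads were 0.0411 and 0.211 per read, 5.13-fold higher (4.81 to 5.47), and Adamts9 reads were 3.17-fold higher (2.84 to 3.54).

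Adamts2 (ENSMUSG00000036545, chr11:50415586-50621075, plus strand) encodes a procollagen N-proteinase, which removes the amino-terminal propeptide of fibrillar collagens. It had 2818 and 2318 reads, an FPKM of 110 and 83.9, and a log2(fold-change) of -0.18 (-0.26 to -0.10). Adamts3 and Adamts14 encode enzymes of the same function and are not members. Adamts14 had 310 and 585 reads, an FPKM of 6.70 and 11.7, and a log2(fold-change) of 1.02 (0.82 to 1.22), just above the threshold, but 0.81 with total reads. Adamts3 had 14 and 10 reads. There were 9.09 Adamts2 reads per Adamts14 read in 5 mM K+ and 3.96 in 60 mM K+, a ratio of 0.436 (0.376 to 0.506) between the conditions.

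Adamts7 and Adamts12 encode proteases known to cleave cartilage oligomeric matrix protein. Adamts12 (ENSMUSG00000047497, chr15:10994545-11276622, plus strand) had 230 and 80 reads, an FPKM of 5.19 and 1.67. It was 0.373 times as high in 60 mM K+ (0.286 to 0.483), a log2(fold-change) of -1.42, the lowest of the 10. Adamts7 (ENSMUSG00000032363, chr9:90057816-90102909, plus strand) had 42 and 49 reads, an FPKM of 1.11 and 1.20, and a log2(fold-change) of 0.32 whose counting interval, -0.30 to 0.95, spanned 0. Its gene overlaps Tbc1d2b on the opposite strand, which had 887 and 781 reads, and without strand the reads of the overlap cannot be told apart. Adamts7 reads per Adamts12 read were 0.183 and 0.613, 3.35-fold higher (2.07 to 5.44). Of the called members on opposite sides, Adamts9 and Adamts12 had 1.81 and 19.6 Adamts9 reads per Adamts12 read, 10.8-fold higher in 60 mM K+ (8.21 to 14.3).

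Adamts10 (ENSMUSG00000024299, chr17:33661149-33690727, plus strand), known for its part in fibrillin microfibril assembly, had 5391 and 4362 reads, an FPKM of 182 and 137. Its log2(fold-change) was -0.20 (-0.26 to -0.15). Adamts6, its close relative and not a member, had 151 and 139 reads, with a log2(fold-change) of -0.02 (-0.36 to 0.32).

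**Figure D2:**
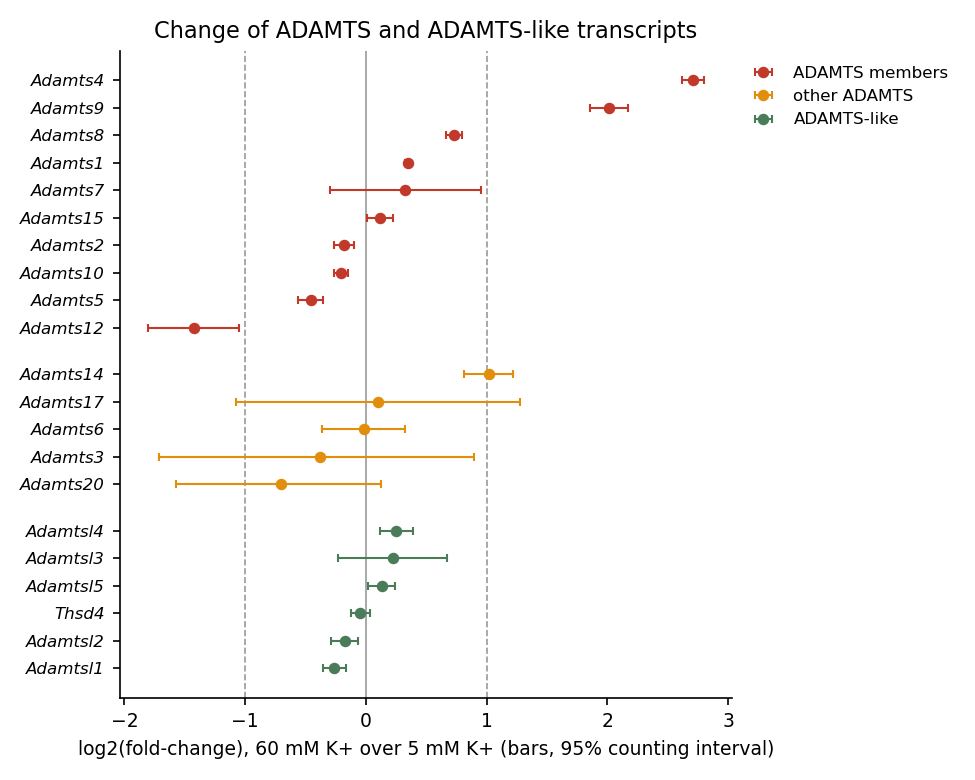
Points give the log2(fold-change), 60 mM K+ over 5 mM K+ (x axis), of the members (red), other ADAMTS proteases (orange) and ADAMTS-like genes (green) with at least 10 reads, bars the 95% counting interval, and dashed lines mark -1 and 1. The intervals of Adamts4, Adamts9 and Adamts12 lie wholly past the lines, while that of Adamts14, centred on 1.02, crosses the line.

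Levels of different genes were compared only per length, by the deposited FPKM. In 5 mM K+ the order from the highest was Adamts1, Adamts10, Adamts2, Adamts8, Adamts15, Adamts4, Adamts5, Adamts9, Adamts12 and Adamts7, and no counting intervals of neighbours in this order overlapped. In 60 mM K+ it was Adamts1, Adamts4, Adamts10, Adamts8, Adamts2, Adamts15, Adamts9, Adamts5, Adamts12 and Adamts7. There the intervals of Adamts15 (33.3 to 36.9) and Adamts9 (31.5 to 34.8) overlapped, as did those of Adamts12 (1.33 to 2.08) and Adamts7 (0.891 to 1.59). Adamts4 thus stood at rank 6 of 10 in 5 mM K+ and at rank 2 in 60 mM K+. The order depended on the length used, since the length implied by the deposited values was 0.262 (Adamts2) to 1.33 (Adamts5) times the exonic length in GENCODE vM1. With that exonic length Adamts4 was at rank 5 and rank 2, and Adamts1 remained at rank 1 in both libraries. In 5 mM K+ the level of Adamts4 was then 22.8, close to Adamts15 at 22.6 and Adamts5 at 21.4. Counting intervals were not computed at that length, so the order of these members in 5 mM K+ is not settled.

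**Figure D3:**
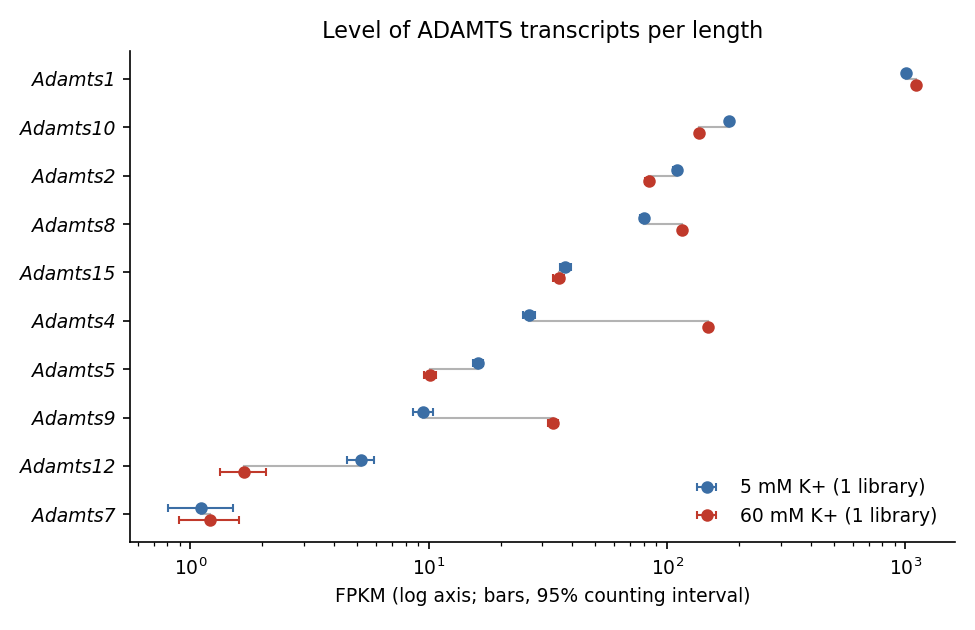
Points give the deposited FPKM (x axis, log scale) of each member in 5 mM K+ (blue) and 60 mM K+ (red), joined by a grey line, with bars for the 95% counting interval of the single library. Members are ordered by their level in 5 mM K+. The longest shifts are those of Adamts4 (26.3 to 148), Adamts9 (9.47 to 33.1) and Adamts12 (5.19 to 1.67).

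The members together had 44263 and 55934 reads, and without Adamts1 16297 and 22717 reads. Adamts1 made up 68.3% of the summed FPKM of the members in 5 mM K+ and 66.2% in 60 mM K+. The share of Adamts4 was 1.78% and 8.87%, and that of Adamts9 was 0.643% and 1.98%. The share of Adamts10 was 12.4% and 8.17%, and that of Adamts2 was 7.46% and 5.01%. Hence Adamts4, a minor transcript of the family in the control library, was the most abundant member after Adamts1 in the depolarized one. The shares rest on the deposited FPKM and depended on the length used. With the exonic lengths of GENCODE vM1, the level per length of Adamts4 was 22.8 in 5 mM K+ and 129 in 60 mM K+. That of Adamts2 was then 28.8 and 22.0, in place of the deposited 110 and 83.9. Adamts4 was again at rank 2 in 60 mM K+.

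**Figure D4:**
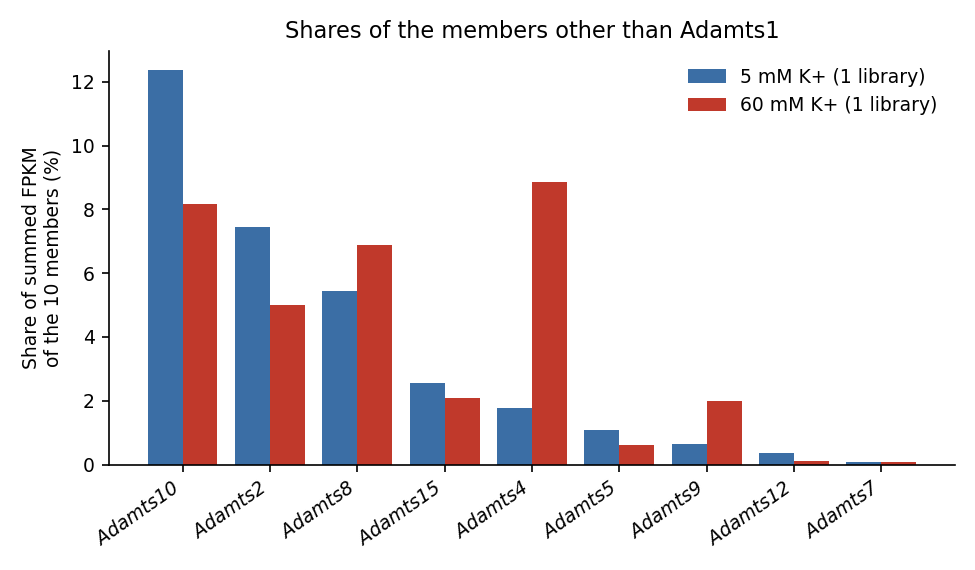
Bars give the share of the summed FPKM of the 10 members (y axis, percent) for each member other than Adamts1 in 5 mM K+ (blue) and 60 mM K+ (red), 1 library each. Adamts4 goes from 1.78% to 8.87%, while Adamts10 goes from 12.4% to 8.17%. The shares depend on the gene lengths behind the deposited FPKM.

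Of the 9 ADAMTS proteases that are not members, 5 had at least 10 reads, of which Adamts14 was called up and 0 were called down, with a median of -0.02. Over all genes with at least 10 reads, 5.54% were called up and 5.86% down. Adamts17, also linked to microfibrils, had 14 reads in each library, and Adamts20 had 35 and 20 reads. Adamts13, the protease of von Willebrand factor, and Adamts18 had 0 reads in both libraries, which allows up to 3 reads each. Adamts16 had 2 and 0 reads and Adamts19 had 1 and 0 reads, so that no fold is given for them. The 7 ADAMTS-like genes encode matrix proteins with the same modules but no protease domain. Of these 6 had at least 10 reads and 0 were called in either direction, with a median of 0.04. Adamtsl1 had 2088 and 1622 reads (log2(fold-change) -0.26), Adamtsl2 1516 and 1251 (-0.18), and Thsd4 2656 and 2399 (-0.05). Adamtsl4 had 837 and 929 reads (0.25), Adamtsl3 81 and 88 (0.22), and Adamtsl5 1287 and 1313 (0.13, but -0.08 with total reads). Papln had 7 and 2 reads. The ADAMTS-like genes thus lay within a narrower range of change, -0.26 to 0.25, than the protease members, -1.42 to 2.71, a description of genes chosen for either list and not a test.

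Substrates and partners were described by the same calls, which 5.54% of all genes with at least 10 reads met upward and 5.86% downward. Of 8 proteoglycan and link protein genes, 4 had at least 10 reads, 0 were called up and 1, Acan, was called down, with a median of -0.29. Versican (Vcan) had 386 and 422 reads, with a log2(fold-change) of 0.23 (0.03 to 0.43). Aggrecan (Acan) was near the floor with 14 and 5 reads, and its value of -1.38 had an interval of -3.21 to 0.17. Of 18 other matrix substrates and partners, 16 had at least 10 reads, 1 was called up and 0 were called down, with a median of -0.15. The call was Sdc4, a cell-surface heparan sulfate proteoglycan. It had 6058 and 12091 reads, and its log2(fold-change) was 1.10 (1.05 to 1.14), or 0.89 with total reads. Fbn1 (fibrillin) and Comp (cartilage oligomeric matrix protein) were named after their values were seen, as the partners of Adamts10 and of Adamts7 and Adamts12. Fbn1 had 2660 and 1267 reads, a change of -0.97 on the log2 scale (-1.07 to -0.87), or -1.18 with total reads, and Comp had 81 and 118 reads, a change of 0.64 (0.22 to 1.07).

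Among 12 genes of inhibition, clearance and activation, 10 had at least 10 reads, 1 was called up and 0 were called down, with a median of 0.06. The shares over all genes were 5.54% up and 5.86% down. The call was Timp1, a broad inhibitor of matrix metalloproteinases, at 152 and 369 reads, a log2(fold-change) of 1.38 (1.10 to 1.66). Timp3, the main known ADAMTS inhibitor, had 8577 and 8196 reads, a log2(fold-change) of 0.04 (-0.01 to 0.08), or -0.17 with total reads. Adamts4 reads per Timp3 read were 0.134 in 5 mM K+ and 0.855 in 60 mM K+, 6.37-fold higher (5.95 to 6.83), and Adamts9 reads per Timp3 read were 3.94-fold higher (3.52 to 4.41). Timp2 had 8752 and 8610 reads (0.08, or -0.13 with total reads) and Timp4 had 1830 and 2124 reads (0.32). Furin, the convertase that removes the propeptide of many ADAMTS enzymes, had 836 and 1267 reads, a log2(fold-change) of 0.70 (0.57 to 0.83). Lrp1, the receptor that takes up several of these enzymes, had 5779 and 4500 reads, a log2(fold-change) of -0.26 (-0.32 to -0.20).

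**Figure D5:**
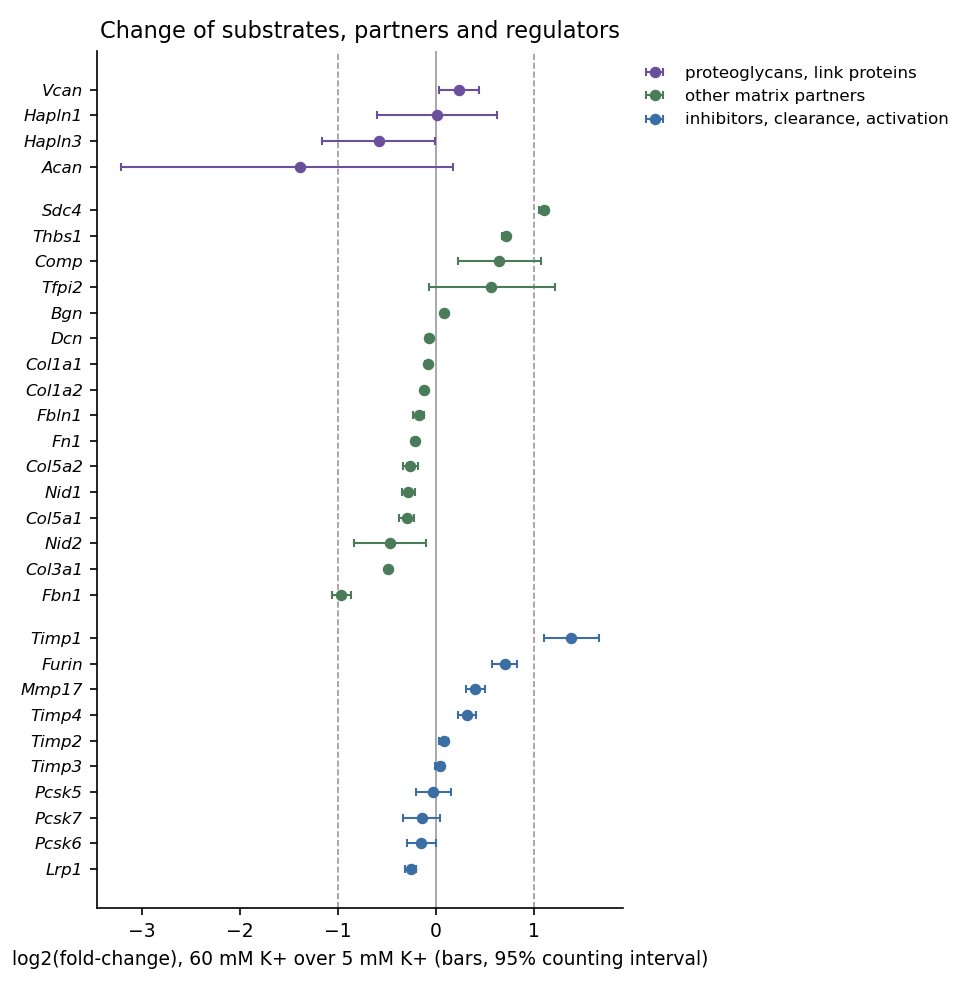
Points give the log2(fold-change), 60 mM K+ over 5 mM K+ (x axis), of proteoglycan and link protein genes (purple), other matrix partners (green) and genes of inhibition, clearance and activation (blue) with at least 10 reads, bars the 95% counting interval, and dashed lines mark -1 and 1. Timp1 and Sdc4 lie above 1, Vcan at 0.23 and Timp3 at 0.04 lie near 0, and Acan at -1.38 has the widest interval.

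The related protease families were set side by side with the members. Among all genes with at least 10 reads, 5.54% were called up and 5.86% down. The lists are small, so nothing is read from their counts of calls. Of 13 ADAM genes, which encode membrane-bound relatives without thrombospondin motifs, 10 had at least 10 reads and 0 were called in either direction, with a median of -0.07 and a range of -0.39 to 0.64. Of 17 matrix metalloproteinase genes, 10 had at least 10 reads, 0 were called up and 1 was called down, with a median of 0.05. The call was Mmp9, with 16 and 3 reads, and its interval of -4.73 to -0.51 reached within the threshold. Among 9 cytokine genes whose products are known to induce ADAMTS genes, 8 had at least 10 reads, 4 were called up and 0 were called down, with a median of 1.16. Il6 had 631 and 3152 reads, a log2(fold-change) of 2.42 (2.30 to 2.55), and Lif had 127 and 495 reads, a log2(fold-change) of 2.06 (1.78 to 2.36). The other 2 calls rested on few reads, 2 and 13 for Tnf and 4 and 11 for Il1b, and with at least 100 reads 2 of 5 cytokine genes were called, with a median of 0.76. Of all genes, 5.54% were called up with at least 10 reads and 3.06% with at least 100 reads. The cytokine list was chosen with results of these data known, so nothing is read from the difference. Whether any cytokine acted on the members was not tested.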

How the data were processed

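RNA was extracted from mesenteric arteries in 5 mM K+ or 60 mM K+, 1 library each, made with a NEBNext Ultra kit. The authors used TopHat2 for alignment to mm9, and for each gene deposited raw counts and FPKM values (fragments per length and depth). The submitters' processing notes list TopHat2 2.0.12, HTSeq 0.6.1, edgeR 3.0.8 and the builds mm9 and mm8, without roles. The annotation is not given in the sources used here. For each of 17356 genes with reads in both libraries, counts per FPKM differed between the libraries by 1.08, as the library totals did. The FPKM values deposited by the authors were therefore relative to library totals.

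Gene names came from GENCODE vM1, which named 32601 of 55573 genes. TMM factors (1.07 for 5 mM K+, 0.930 for 60 mM K+) were computed from all counts with edgeR 4.0.16 in R 4.3.3, and median-of-ratios factors with DESeq2 1.42.0. A count of 0 entered as 0.5 reads. Intervals of log2(fold-change) and of fold are 95% exact (Clopper-Pearson) intervals of the share of reads in 1 library. Those of the ratio between 2 genes are 95% normal approximations on the log scale, from the read counts. Those of FPKM are 95% exact Poisson intervals of the read count. Without replicates no test was run, including the study's own test on reads, which compares 2 libraries. The fold computation was tested on simulated data. Members and gene lists were chosen with earlier results of these data known. Named genes are all members, ADAMTS and ADAMTS-like genes, called genes of the other lists, and Vcan, Acan, Timp1, Timp2, Timp3, Timp4, Lrp1, Furin and Sdc4 whatever their values, and for Adamts1, Adamts4 and Adamts9 the 3 genes outside the lists with at least 1000 reads and the nearest change. Fbn1 and Comp fall outside this rule and were named after their values were seen. Marker genes are given as sums, with those at 0 and some single markers, such as the highest and the called ones. Promoters came from RefSeq (GRCm38.p6). Protein sequences were not used here. Alternatives were other scalings, FPKM with pseudocounts of 0.1 and 1, read minimums of 0 and 100, other thresholds and a wider promoter window.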

Additional observations from a re-analysis of the deposited data

How the results depend on the processing

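The calls of Adamts4 and Adamts9 as up-regulated and of Adamts12 as down-regulated were made under total-count, median-of-ratios and upper-quartile scaling, from FPKM with either pseudocount, without a read minimum and with at least 100 reads. The median of the members was 0.22 with TMM, 0.21 with median-of-ratios scaling, 0.18 with upper-quartile scaling, 0.0101 with total reads, and 0.0056 and -0.0153 from FPKM with pseudocounts of 0.1 and 1. With total reads, 4.05% of all genes were called up and 8.67% down. The call of Adamts14 was lost with total reads, upper-quartile scaling, FPKM and the interval threshold, and that of Sdc4 with total reads and FPKM, whereas Fbn1 passed -1 with total reads, upper-quartile scaling and FPKM. The call of Acan was lost from FPKM, with at least 100 reads and by the interval threshold. The median of the cytokine genes, 1.16, was 0.76 with at least 100 reads or with no minimum, and 0.87 and 0.57 from FPKM with pseudocounts of 0.1 and 1. Each of these follows from how the alternative was built: a shift of all values, a pseudocount, a smaller set of genes or a stricter threshold. Ranks of members by level with GENCODE vM1 lengths, an alternative chosen after seeing the data, differed for 10 of 20 ranks. The wider promoter window (1000 bases before to 200 after the start, mm9) gave the same number of members with each motif, but 46.3% of 22380 genes then held the short cAMP response element. No paired analysis was possible because there was only 1 library for 5 mM K+ and 1 for 60 mM K+. Depth limited mainly Adamts7, Adamts12 and the genes with few reads, and the spread between animals is unknown.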

Other observations

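By the nearest log2(fold-change) among 3987 genes outside the lists with at least 1000 reads, the genes most like Adamts4 over these 2 libraries were Selp, an endothelial and platelet adhesion receptor for leukocytes (321 and 1996 reads, log2(fold-change) 2.74), Bcl3, a nuclear IkB protein (156 and 914 reads, 2.65), and Tnfaip3, which encodes the NF-kB feedback regulator A20 (490 and 2749 reads, 2.59). Those most like Adamts9 were B4galt5, a galactosyltransferase (309 and 1152 reads), Procr, the endothelial protein C receptor (798 and 2932 reads), and Slc2a1, a glucose transporter (289 and 1047 reads), all within 0.06 of its log2(fold-change). Those most like Adamts1, at 0.35, were Tpm2, a smooth muscle tropomyosin (39573 and 47007 reads), Anxa7 (2101 and 2495 reads) and Hsd11b1 (574 and 682 reads). Likeness here is only an equal fold between 2 libraries.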
